A study of Mus musculus with 4 samples.

Results

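Crohn disease is an inflammation of the gut whose inherited risk maps to many loci, and this account concerns the mouse orthologues of 10 genes in such loci, leaving out the autophagy genes. The members were all probe sets whose single gene symbol in the platform annotation was Nod2, Card9, Lrrk2, Kcnn4, Ptpn2, Nkx2-3, Slc22a4, Slc22a5, Ptger4 or Smad3. The rule used no measured value. It found 18 of the 45037 probe sets used, from 8 of the 10 genes. No probe set in the annotation table carried the symbol Nod2 or Card9, so both genes were not analysed here.

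The genes act at different points of gut immunity and epithelial function. Nod2 encodes a sensor of bacterial cell wall fragments that is known from Paneth cells, Card9 an adaptor that links fungal sensing to NF-kB, and Lrrk2 a large kinase that phosphorylates Rab GTPases and has been tied to the sorting of lysozyme in Paneth cells. Kcnn4 encodes a potassium channel opened by calcium that helps drive fluid secretion. Ptpn2 encodes a phosphatase that restrains JAK and STAT signalling, Smad3 a transcription factor that carries TGF-beta signals, Ptger4 a receptor for prostaglandin E2, Slc22a4 and Slc22a5 organic cation and carnitine carriers, and Nkx2-3 a homeobox factor of gut mesenchyme and vessels.

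Paneth cells, the secretory cells of the small intestinal crypt base, were isolated from murine tissue by laser capture, and their total RNA was amplified and hybridised to 4 biotin arrays. Both genotypes, Atg16-hypomorph and wildtype, had 2 arrays each and shared a mixed C57BL/6 - 129ola strain. In a hypomorph a gene works at reduced strength, here Atg16l1, which encodes a protein needed to build autophagosomes. The labels do not describe the allele, the age or sex of the mice, any treatment, the number of cells, how they were chosen or which animal each array came from, so the p-values reflect the spread between these 4 samples, part of which may be technical.

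Values are linear intensities as the authors deposited them, given for each array or as mean ± SD (n = 2 arrays a group). Intensities of different probe sets cannot be ranked against each other as levels of their genes. Each log2 difference is that of log2(intensity + 32), hypomorph minus wildtype. Adding 32 understates changes at low intensity. A probe set was tested when its mean log2 value reached the median of all probe sets, 6.32, which is an intensity of about 47.7. A call is an adjusted p under 0.05 (limma, Benjamini-Hochberg over 22519 probe sets).

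Across the series the array medians lay between 47.2 and 49.5. Atg16l1, the targeted gene, read 966 and 995 in hypomorph against 1335 and 1183 in wildtype and was not called (log2 difference -0.35, limma adjusted p = 0.102). Whether its probes cover the altered part is not stated in the labels. Of 7 Paneth cell markers tested 0 were called in limma, with 4 at an unadjusted p under 0.05, where 21.7% of all genes passed. The log2 difference was below 0 in 6 of the 7, with a median of -0.10, and was 0.20 for Nupr1. The summed intensity of the 7 was 59171 to 63474 in hypomorph and 64332 to 64729 in wildtype, with Lyz1, the lysozyme gene, between 14561 and 16021. Markers of other cells differed between the groups. Of 7 tested enterocyte markers 6 were higher (summed intensity 10502 to 10888 in hypomorph and 4375 to 4625 in wildtype), as were 5 of 5 tested fat cell markers (9998 to 11403 and 4174 to 4218), while 4 of 5 enteroendocrine markers were lower (8041 to 8569 and 10759 to 11543). Also higher were 2 of 6 tested T and NK cell markers, Gzma and Gzmb. The other tested markers of that set, Cd3g, Cd3d, Cd8a and Cd2, were not called (log2 differences 0.042, -0.085, 0.083 and -0.32). The summed intensity over 8 markers, most of it from Gzma and Gzmb, was 2332 to 2550 in hypomorph and 1374 to 1514 in wildtype. Of 6 fibroblast markers 2 were higher, Col1a1 and Col1a2 (summed intensity over all 6 21375 to 22501 and 19326 to 19485). Xist, a transcript made by the inactive X of female cells, was at 4414 and 4510 in hypomorph against 18.0 and 25.6 in wildtype. Genotype and sex cannot be told apart in these arrays.

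Of the 18 member probe sets 10 were bright enough to test, from 6 genes, and none of them was called in limma. Over all tested probe sets 3.71% were called. At an unadjusted p under 0.05 there were 2 of the 10, where 20.5% of all tested probe sets passed. The groups did not overlap in 4 of the 10, 3 with hypomorph below and 1 with hypomorph above. Over all tested probe sets they did not overlap in 51.8%, with hypomorph below in 29.9% and above in 21.8%. The median log2 difference of the 10 was -0.10, against -0.03 over all tested probe sets. The median size of a difference, regardless of its sign, was 0.14 in the members and 0.16 over all. The members thus held no more calls and no larger differences than the array as a whole. As these were bulk samples, fewer cells of a type and less RNA per cell cannot be told apart.

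**Figure D1:**
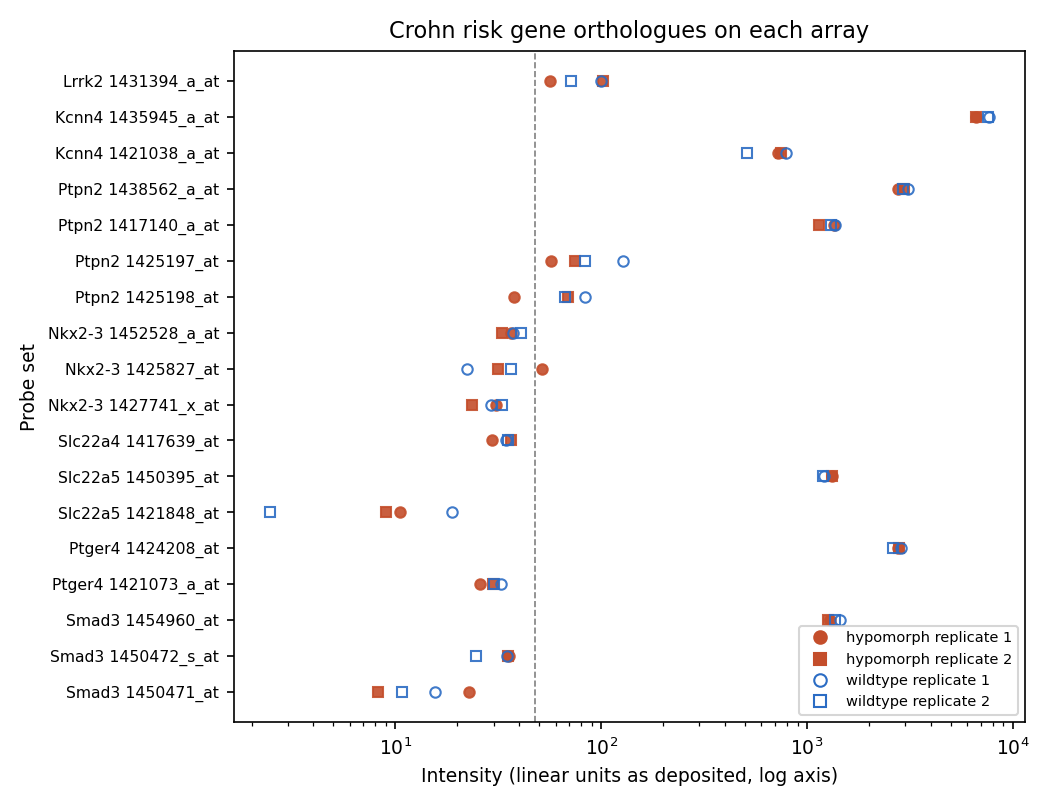
Intensity of each member probe set on each array, on a log axis, with filled symbols for hypomorph, open symbols for wildtype, circles for replicate 1 and squares for replicate 2. The dashed line marks the intensity of 47.7 that corresponds to the brightness filter. The symbols of both genotypes lie close together for most probe sets, and 8 probe sets lie below the filter by their mean.

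Lrrk2, the kinase, had a single probe set on chromosome 15. It read 56.6 and 102.6 in hypomorph and 99.8 and 71.5 in wildtype. The replicates of each group were further apart than the group means, and the groups overlapped. Its log2 difference was -0.10 (SE 0.22, limma adjusted p = 0.853), with a 95% interval from -0.60 to 0.40. At this spread an observed difference of 0.95 would have been needed for a call. The lack of a call thus does not show an unchanged level. The sign turned when hypomorph replicate 1 was left out (0.20) and when wildtype replicate 1 was left out (0.077).

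The other genes listed beside Lrrk2 were Rab substrates, interactors and the paralogue Lrrk1, and 0 of 13 were called in limma, with 2 at an unadjusted p under 0.05. Over all genes, each taken at its brightest probe set, 4.23% were called and 21.7% had an unadjusted p under 0.05. Their median log2 difference was -0.071, against -0.02 over all 11577 genes tested. Lrrk1 read 498 and 545 in hypomorph and 601 and 600 in wildtype (log2 difference -0.19, limma adjusted p = 0.403). The smallest unadjusted p-values of the list belonged to Nfatc2, a transcription factor of lymphocytes that LRRK2 has been reported to restrain, and Vps35, a subunit of the retromer that sorts endosomal cargo. Nfatc2 was at 244 ± 74.9 against 376 ± 46.2 (limma adjusted p = 0.132), and Vps35 at 2488 ± 253 against 2967 ± 63.7 (limma adjusted p = 0.14). The log2 differences of Nfatc2 and Vps35 were -0.58 and -0.25 with all arrays. They were -0.86 and -0.36 without hypomorph replicate 2, and -0.30 and -0.15 without hypomorph replicate 1. Another tested probe set of Nfatc2 gave a log2 difference of -0.15.

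Kcnn4, the calcium-activated potassium channel gene on chromosome 7, came closest to a call. Its probe set 1435945_a_at read 6644 and 6609 in hypomorph and 7683 and 7550 in wildtype. Both hypomorph arrays were below both wildtype arrays, and the replicates of each group differed by at most 0.025 on the log2 scale. The hypomorph mean was 0.87 of the wildtype mean. The log2 difference was -0.20 (SE 0.053, 95% interval -0.32 to -0.082) and missed the threshold (limma adjusted p = 0.0692). At this spread a difference of 0.22 would have been called. Each of the 4 fits that left out an array kept the sign, with differences of -0.21 to -0.19 and adjusted p-values of 0.0546 to 0.363 in limma.

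The other probe set of Kcnn4, 1421038_a_at, read 727 and 750 in hypomorph and 793 and 514 in wildtype. The wildtype arrays lay on both sides of the hypomorph arrays. Its log2 difference was 0.20 (SE 0.18, 95% interval -0.19 to 0.59, limma adjusted p = 0.562), and it was -0.10 without wildtype replicate 2. Both probe sets thus gave opposite signs with intervals that overlap, and their difference was not tested. The suffix a_at marks probe sets that match several transcripts of the same gene.

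**Figure D2:**
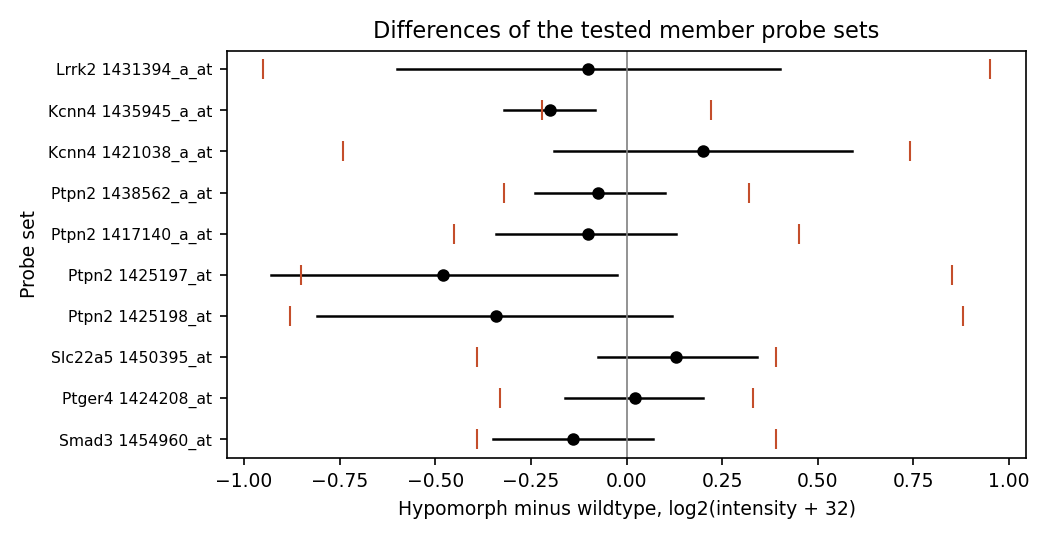
Log2 difference of each tested member probe set, hypomorph minus wildtype, with its 95% interval from limma (black line). Red ticks mark the size of difference that would have been called at that probe set's spread. No point lies beyond its ticks, and the Kcnn4 probe set 1435945_a_at at -0.20 lies nearest to one, at 0.22 from zero.

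Among the other genes of ion transport and secretion 1 of 11 tested was called, where 4.23% of all genes were. Cftr, the chloride channel through which crypt cells secrete chloride while potassium channels such as Kcnn4 keep the driving force, fell in hypomorph. It read 2259 and 2363 in hypomorph and 3588 and 3556 in wildtype, so that the groups lay far apart relative to their replicates. This gave a log2 difference of -0.62 (SE 0.073, limma adjusted p = 0.00132), and the call was kept without each array in turn. The probe set carries the suffix s_at, which marks probes that match more than one transcript sequence, and the other Cftr probe set was at 5.3 to 7.81, too dim to test. Beside this fall, 0 of 4 tested stem cell markers were called in limma, with 1 at an unadjusted p under 0.05, and 4 of 5 enteroendocrine markers were lower as given above. The part of cell mixture in the Cftr result was not tested.

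The other genes of that list were not called. The potassium channel genes Kcnq1 and Kcne3, whose products form a channel of epithelial cells, had log2 differences of -0.15 and -0.10 (limma adjusted p = 0.372 and 0.531). Slc12a2, the cotransporter that loads cells with chloride, was at 7763 and 7769 against 8251 and 7936 (log2 difference -0.059, limma adjusted p = 0.562). Kcnma1, the large-conductance potassium channel, had the next smallest unadjusted p in the list and was at 227 ± 25.7 against 298 ± 45.9 (limma adjusted p = 0.263). Other tested probe sets of Kcnma1 gave -0.34, 0.25 and -0.25. The channel genes closest to Kcnn4 in sequence, Kcnn1, Kcnn2 and Kcnn3, were all below the brightness filter, at intensities of 7.2 to 36.0.

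Ptpn2, the phosphatase gene on chromosome 18, was covered by 4 probe sets that were all tested. Probe set 1438562_a_at read 2757 and 2951 in hypomorph and 3085 and 2926 in wildtype (log2 difference -0.074, 95% interval -0.24 to 0.10, limma adjusted p = 0.626). Probe set 1417140_a_at read 1347 and 1147 against 1367 and 1309 (log2 difference -0.10, 95% interval -0.34 to 0.13, limma adjusted p = 0.626). The groups overlapped in both, and a difference of 0.32 or 0.45 would have been called there. The sign of the latter turned without hypomorph replicate 2, at 0.0097.

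The dimmer Ptpn2 probe sets had larger differences and larger errors. Probe set 1425197_at read 57.1 and 75.0 in hypomorph and 128.2 and 83.3 in wildtype, without overlap, with a log2 difference of -0.48 (SE 0.20, 95% interval -0.93 to -0.026, limma adjusted p = 0.219). This was the largest difference among the tested member probe sets, but 0.85 would have been needed for a call. With single arrays left out it ranged from -0.71 without wildtype replicate 2 to -0.24 without wildtype replicate 1. Probe set 1425198_at read 37.8 and 68.8 against 83.2 and 66.4, with overlap (log2 difference -0.34, limma adjusted p = 0.383). Without hypomorph replicate 1 that value was -0.08. Both probe sets were derived from the same database sequence in the annotation, so they are not independent readings of the gene. All 4 differences of Ptpn2 were negative, and none of them passed the threshold.

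Of the JAK and STAT genes and receptors that Ptpn2 is known to act on or beside, 0 of 12 tested were called in limma, 0 had an unadjusted p under 0.05, and their median log2 difference was 0.043. Jak1, a kinase that Ptpn2 dephosphorylates, read 460 and 479 in hypomorph and 491 and 408 in wildtype. The related phosphatase gene Ptpn1 read 886 and 960 against 903 and 828. The smallest unadjusted p-values were those of Stat5b, a cytokine-activated transcription factor, at 44.9 ± 16.4 against 69.6 ± 7.44 (limma adjusted p = 0.258), and Insr, the insulin receptor, at 1643 ± 59.2 against 1862 ± 0.54 (limma adjusted p = 0.277).

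Smad3, the TGF-beta signal carrier on chromosome 9, had 1 tested probe set of 3. Probe set 1454960_at read 1288 and 1261 in hypomorph and 1442 and 1371 in wildtype. Both hypomorph arrays were below both wildtype arrays. The log2 difference was -0.14 (SE 0.093, 95% interval -0.35 to 0.070) and was not called (limma adjusted p = 0.435), where 0.39 would have been. It stayed negative without each array in turn. The other probe sets, 1450472_s_at at 24.8 to 35.6 and 1450471_at at 8.21 to 22.7, were below the filter, with log2 differences of 0.13 and 0.057.

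The TGF-beta list had 0 of 13 tested genes called in limma, with 1 at an unadjusted p under 0.05. Its median log2 difference was -0.13, and 10 of the 13 were below 0, against 55.2% of all genes tested. Tgfbr2 and Tgfbr1, which encode the paired receptor chains, had the smallest unadjusted p-values. Tgfbr2 read 2943 and 3400 in hypomorph and 3694 and 3824 in wildtype (log2 difference -0.25, limma adjusted p = 0.134), and Tgfbr1 was at 1179 ± 196 against 1376 ± 85.7 (log2 difference -0.23, limma adjusted p = 0.333). Without hypomorph replicate 2 Tgfbr2 was at -0.35 and Tgfbr1 at -0.39 on the log2 scale. Without hypomorph replicate 1 Tgfbr2 was at -0.14 and Tgfbr1 at -0.06. Other, dimmer tested probe sets of Tgfbr2 gave -0.12 and -0.04. Smad4, the common partner of Smad3, read 5555 and 5899 against 6285 and 5902, and the inhibitory Smad7 read 781 and 769 against 656 and 694, with limma adjusted p-values of 0.459 and 0.369.

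Ptger4, the prostaglandin E2 receptor gene on chromosome 15, differed between the groups by less than the spread between replicates. Probe set 1424208_at read 2752 and 2807 in hypomorph and 2877 and 2608 in wildtype, where the wildtype arrays enclosed the hypomorph arrays. The log2 difference was 0.021 (SE 0.079, limma adjusted p = 0.914). Its 95% interval from -0.16 to 0.20 bounds the change to about that size in either direction on this scale. The sign turned without wildtype replicate 2, at -0.049. The other probe set, 1421073_a_at, lay at 25.7 to 32.7, below the filter.

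In the prostaglandin list 1 of 8 tested genes was called in limma and 4 had an unadjusted p under 0.05, against 4.23% and 21.7% of all genes. The median log2 difference of the list was -0.018. Ptger3, another receptor for prostaglandin E2, which couples to inhibition of cyclic AMP where the product of Ptger4 raises it, rose in hypomorph. It read 291 and 294 in hypomorph and 132 and 153 in wildtype, a ratio of means of 2.06. The rise was 0.90 on the log2 scale (SE 0.15, limma adjusted p = 0.0121). Without wildtype replicate 1 the call was lost (limma adjusted p = 0.0666), and it was kept without each of the other arrays. Its second probe set was at 1.38 to 5.93, too dim to test. Whether Ptger3 and Ptger4 differed in their response was not tested. Fat cell and enterocyte markers were higher on the same arrays, as given above, and their part in the Ptger3 result was not tested.

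Slco2a1, a prostaglandin uptake carrier, had the next smallest unadjusted p of that list and was at 1241 ± 48.1 against 917 ± 145 (log2 difference 0.43, limma adjusted p = 0.0857). Without wildtype replicate 2 its adjusted p was 0.0362 in limma, and without wildtype replicate 1 its log2 difference was 0.28 (limma adjusted p = 0.411). Its other tested probe sets gave 0.17 and -0.0027. Hpgd and Pla2g4a, also at an unadjusted p under 0.05, were lower (log2 differences -0.34 and -0.31, limma adjusted p = 0.195 and 0.214). Ptger2 read 223 and 190 in hypomorph and 237 and 206 in wildtype. Ptger1 and Ptgs2, the inducible cyclooxygenase gene, were below the filter at 2.49 to 14.0 and 10.3 to 22.3.

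Slc22a5, the carnitine carrier gene on chromosome 11, had the one tested member probe set with both hypomorph arrays above both wildtype arrays. That probe set, 1450395_at, read 1326 and 1318 in hypomorph and 1206 and 1197 in wildtype, with gaps between replicates of at most 0.011 on the log2 scale. The log2 difference was 0.13 (SE 0.093, 95% interval -0.075 to 0.34) and was not called (limma adjusted p = 0.453). Its SE rests mostly on the spread that limma shares across probe sets, which is larger than the gap between these replicates. The other probe set, 1421848_at, lay at 2.45 to 18.8, below the filter.

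Slc22a4, the neighbouring gene, which encodes a carrier of ergothioneine and organic cations, was below the filter on its only probe set. It read 29.5 and 36.5 in hypomorph and 34.5 and 35.4 in wildtype, with overlap and a log2 difference of -0.045. In the RefSeq gene order Slc22a21, a further carrier of this family, lies between Slc22a5 and Slc22a4. It read 80.5 and 68.3 against 76.7 and 89.0 (log2 difference -0.11, limma adjusted p = 0.761). These genes are related in sequence, and probes of one may also bind RNA of another.

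Of the carnitine and cation carrier list 1 of 10 tested genes was called, where 4.23% of all genes were. Slc25a20, which carries acylcarnitines into mitochondria, rose in hypomorph from 1918 and 2030 to 2573 and 2621. On the log2 scale the difference was 0.39 (SE 0.080, limma adjusted p = 0.0279). The call was lost when hypomorph replicate 1 or either wildtype replicate was left out, at limma adjusted p-values of 0.0544 to 0.156, and its other tested probe set gave 0.33 (limma adjusted p = 0.213). Beside this rise stand the 6 of 7 enterocyte and 5 of 5 fat cell markers that were higher, and their part in it was not tested. Slc6a14, an amino acid and carnitine carrier gene on the X chromosome, had the largest difference of the list. It was at 144 ± 40.8 against 269 ± 31.1 (log2 difference -0.79, limma adjusted p = 0.0527). Genotype and sex cannot be told apart for it, as given above. With single arrays left out its log2 difference ranged from -1.03 without hypomorph replicate 2 to -0.55 without hypomorph replicate 1. The other Slc6a14 probe set, below the filter, gave -0.56. Cpt1a, which starts fatty acid entry into mitochondria, read 2456 and 2328 against 2412 and 2556.

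Nkx2-3, the mesenchymal homeobox gene on chromosome 19, was below the filter on all 3 of its probe sets. Probe set 1452528_a_at read 36.3 and 33.1 in hypomorph and 37.4 and 40.9 in wildtype, 1425827_at read 51.6 and 31.6 against 22.3 and 36.5, and 1427741_x_at read 30.7 and 23.4 against 29.0 and 33.0. The log2 differences were -0.093, 0.26 and -0.10. The suffix x_at marks probes that may bind other sequences too.

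Of the stromal genes listed beside Nkx2-3, 6 of 10 were tested and 0 were called in limma. An unadjusted p under 0.05 was found in 3, against 21.7% of all genes. The median log2 difference of the 6 was -0.30, against -0.02 over all genes tested. Madcam1, an adhesion molecule of gut vessels that Nkx2-3 is known to regulate, read 123 and 148 in hypomorph and 199 and 210 in wildtype (log2 difference -0.50, limma adjusted p = 0.123). The related homeobox gene Nkx2-6 read 143 and 126 against 74.1 and 93.9 (log2 difference 0.53, limma adjusted p = 0.126). The groups did not overlap in either gene, as in 51.8% of all tested probe sets. Isl1 was also lower without overlap (log2 difference -0.49, limma adjusted p = 0.152). Foxf1 was higher without overlap (log2 difference 0.29, limma adjusted p = 0.372). The log2 difference was below 0 in 4 of the 6. Bmp4 had the largest difference of the list, with overlap (log2 difference -0.61, limma adjusted p = 0.256). Of 4 tested endothelial markers 0 were called in limma and 1 had an unadjusted p under 0.05, with a summed intensity of 3171 to 3305 in hypomorph and 2807 to 3114 in wildtype. Of 6 tested fibroblast markers 2 were called, both higher. Col1a1, a collagen chain gene, read 642 and 631 in hypomorph and 333 and 339 in wildtype (log2 difference 0.86, limma adjusted p = 0.00468), and the difference for Col1a2 was 0.26 (limma adjusted p = 0.0477). The summed intensity of the fibroblast markers was 21375 to 22501 against 19326 to 19485, and that of 5 smooth muscle markers, of which 0 were called in limma and 1 had an unadjusted p under 0.05, was 7494 to 7870 against 7956 to 9161. The part of these cells in the Madcam1 and Nkx2-6 values was not tested.

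Taking the 8 member probe sets below the filter together, their intensities ran from 2.45 to 51.6, and their log2 differences from -0.10 to 0.26. Tested without the filter, where 0.673% of all probe sets were called, 0 of the 8 were called, and 0 had an unadjusted p under 0.05 (13.9% of all). Their lowest adjusted p was 0.625 (limma). These readings set no useful bound, since adding 32 compresses any change at such intensities.

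Nod2 and Card9 themselves were not analysed here, but 20 genes of their pathways were tested. Of these 1 was called in limma and 3 had an unadjusted p under 0.05, against 4.23% and 21.7% of all genes. Clec7a, the receptor for fungal glucans that signals through Card9, rose from 459 and 550 in wildtype to 752 and 788 in hypomorph. The difference was 0.58 on the log2 scale (SE 0.13, limma adjusted p = 0.0384), and the groups did not overlap. The call was kept without wildtype replicate 2 (limma adjusted p = 0.0285) and lost without each of the other arrays, at adjusted p-values of 0.0629 to 0.195. Clec7a is a gene of macrophages and dendritic cells. Of 6 tested myeloid markers 0 were called in limma and 3 had an unadjusted p under 0.05, Csf1r and Adgre1 higher and Ptprc lower. Summed over 8 markers, the intensity was 16728 to 18361 in hypomorph and 16889 to 16900 in wildtype. Lyz2, the brightest of them, read 7689 and 8190 against 7868 and 8245 and made up the largest part of that sum. How much of the Lyz2 signal came from myeloid cells was not tested. The macrophage genes Csf1r and Adgre1 had both hypomorph arrays above both wildtype arrays, as did 21.8% of all tested probe sets. Csf1r read 3914 and 4538 against 3653 and 3510 (log2 difference 0.23, limma adjusted p = 0.148), and Adgre1 read 1733 and 1816 against 1529 and 1374 (log2 difference 0.29, limma adjusted p = 0.129). Tyrobp, an adaptor of myeloid receptors, also lay above, at 1308 and 1176 against 1095 and 1024 (log2 difference 0.22, limma adjusted p = 0.263). Ptprc, a gene of all leukocytes, lay below (log2 difference -0.26, limma adjusted p = 0.216), and Cd14 overlapped between the groups (log2 difference -0.079, limma adjusted p = 0.802). The part of myeloid cells in the Clec7a difference was not tested. Among these markers Itgam at 6.68 to 24.9 and Cd68 at 19.1 to 31.0 were below the filter.

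The partners of Card9, Bcl10 and Malt1, had log2 differences of -0.029 and -0.050, with overlap between the groups. Nod1, the related sensor, read 230 and 212 in hypomorph and 250 and 260 in wildtype (log2 difference -0.18, limma adjusted p = 0.52). Tab2, which couples Nod2 signalling to the kinase encoded by Map3k7, was at 2887 ± 87.8 against 3464 ± 85.6 (log2 difference -0.26, limma adjusted p = 0.0784). Its other probe set gave -0.045. Nfkbia, another gene of the list, read 8256 and 8552 against 9524 and 9242 (log2 difference -0.16, limma adjusted p = 0.12). Of the 20 genes 16 had a log2 difference below 0, against 55.2% of all genes tested. Their median was -0.043, against -0.02 over all genes tested. Over all lists together 69 of 112 genes were below 0, and single lists ranged from 41.7% (JAK and STAT) to 80% (this list).

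**Figure D3:**
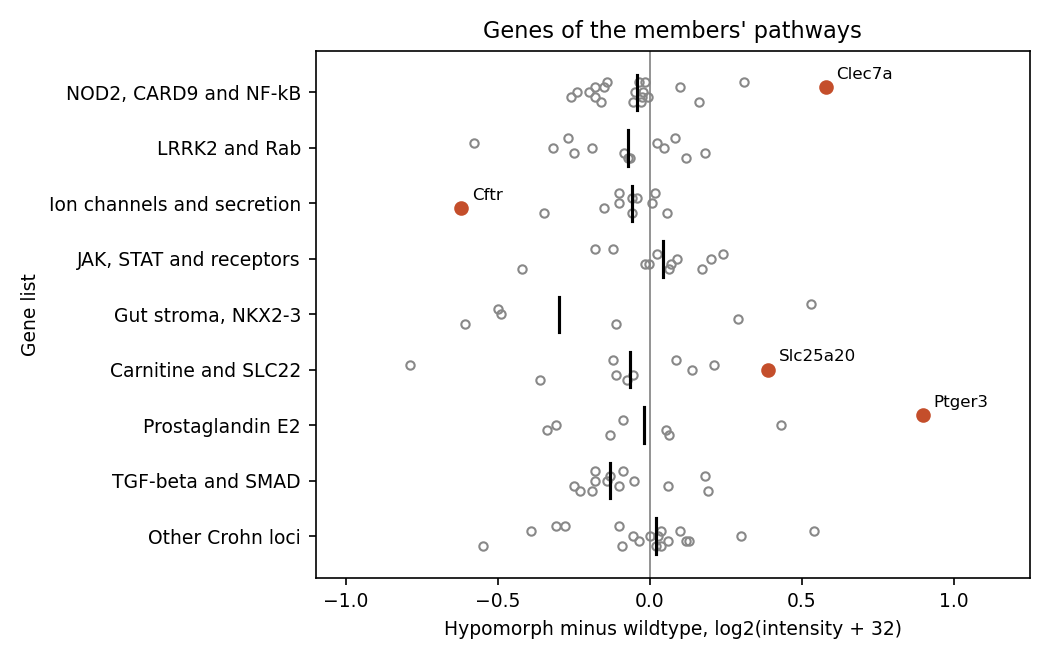
Log2 difference, hypomorph minus wildtype, of each tested gene in the lists of the members' pathways, by its brightest probe set. Black bars mark list medians, and filled red points with a name mark the genes that were called, which are Clec7a, Cftr, Slc25a20 and Ptger3.

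Other orthologues of genes in Crohn loci were listed as well. Of these 31 were on the array, 19 were tested and 0 were called in limma, with 4 at an unadjusted p under 0.05 and a median log2 difference of 0.02. The smallest unadjusted p-values were those of Fads1, a fatty acid desaturase, at 582 ± 4.72 against 877 ± 169 (log2 difference -0.55, limma adjusted p = 0.0631), and Ptpn22, a phosphatase of lymphocytes, at 166 ± 25.9 against 104 ± 1.44 (log2 difference 0.54, limma adjusted p = 0.111). Without wildtype replicate 1 the adjusted p of Fads1 was 0.0189 in limma, and without wildtype replicate 2 its log2 difference was -0.36 (limma adjusted p = 0.376). Its other probe set gave 0.11. Among genes with known roles in Paneth cells, Xbp1, a regulator of the secretory apparatus, read 7222 and 7502 in hypomorph and 6988 and 6599 in wildtype (log2 difference 0.12, limma adjusted p = 0.287). Itln1, an intestinal lectin, read 10128 and 10459 against 11120 and 11016 (log2 difference -0.10, limma adjusted p = 0.243).

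Over all 9 lists 112 genes were tested, of which 3 were higher, 1 was lower, and 3.57% were called in either direction, against 4.23% of all 11577 genes (2.53% higher and 1.7% lower). The share called in these pathways was therefore near that of the array as a whole, as was the number with an unadjusted p under 0.05, 20 of 112 against 21.7%. The 4 called genes were 1 each from the Card9, secretion, carnitine and prostaglandin lists, and none of them is a member. Of these calls Ptger3 alone was kept without the intensity trend, where Cftr had an adjusted p of 0.0625, and Cftr alone was kept without the brightness filter, where Ptger3 had an adjusted p of 0.0535 (limma).

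**Figure D4:**
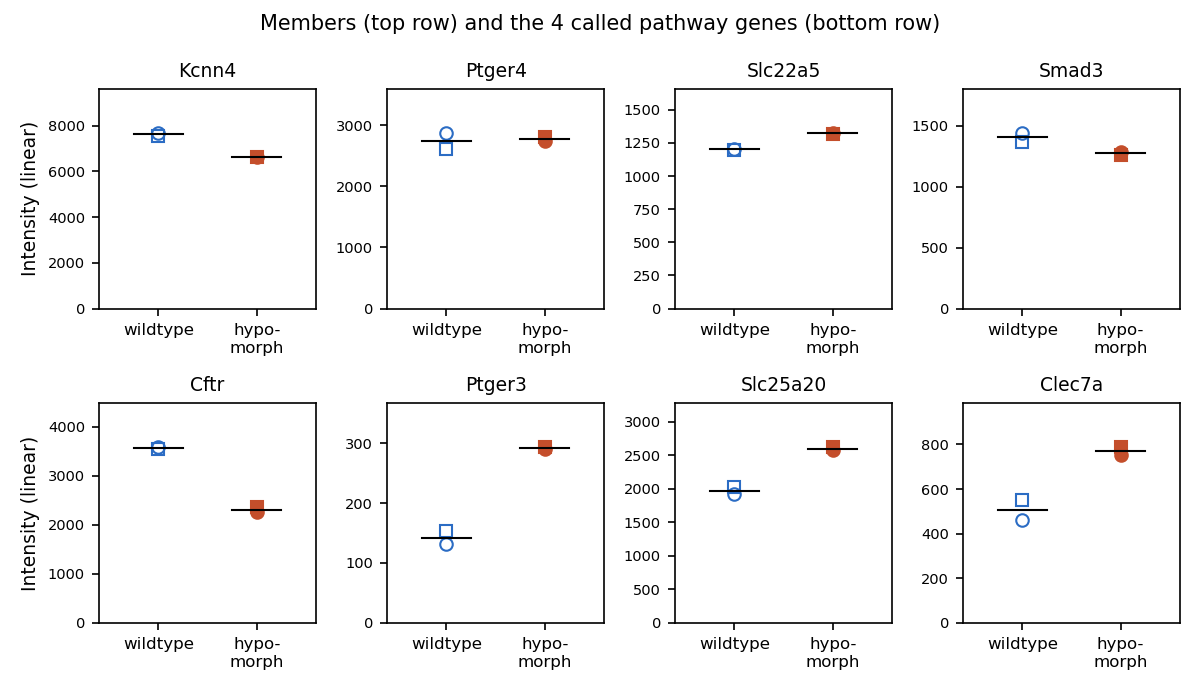
Intensity on each array for 4 members in the top row and the 4 called pathway genes in the bottom row, on linear axes from 0, with wildtype open and hypomorph filled, circles for replicate 1, squares for replicate 2 and a bar at each mean. Each gene is shown at its brightest probe set, and the other Kcnn4 probe set, not shown, overlaps between the groups. Ptger4 overlaps, while Kcnn4, Slc22a5 and Smad3 do not, as in 51.8% of all tested probe sets, and were not called. Lrrk2 and Ptpn2, also tested members, are not shown and overlap at their brightest probe sets. Of the 10 tested member probe sets 6 overlap. The bottom row shows the fall of Cftr and the rises of Ptger3, Slc25a20 and Clec7a.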

How the data were processed

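Laser-captured Paneth cell RNA was extracted with PicoPure and amplified and biotin-labelled with RiboAmp Plus, per the labels' protocols. The authors deposited 1 linear intensity per probe set and array. Their scaling, background correction, probe summary and detection calls are not stated in the labels. Trimmed means (2% at each end) differed by a factor of at most 1.02, so values were not normalised again. The number of arrays limits the precision.

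Of 45101 probe sets 64 were controls. Of the rest 34945 had 1 gene symbol, 932 several and 9160 none in the platform annotation, and only the first were named. Gene IDs of 34741 were found in RefSeq (GRCm38.p6), and 0 symbols changed. The files name no genome build, so chromosomes are given without coordinates. No sequence of the array's probes was used here.

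The model had group as its only term (limma 3.58.1, R 4.3.3, lmFit and eBayes with an intensity trend, 2 residual and 7.81 prior degrees of freedom, two-sided). The same fit was run on simulated data with independent errors drawn from limma's own prior. That simulation held no shared replicate deviations and no differences in cell mixture, so it cannot check the model against these. With 2 arrays a group an exact permutation test cannot go below p = 0.333. Pathway genes were taken at their brightest probe set. Named pathway genes were up to 4 called genes a list and, where fewer than 2 were called, those 2 with the smallest unadjusted p; others named were chosen after their values were seen. The members and lists were chosen with earlier results of these data known. Alternatives were other normalisations, pseudocounts, filters and priors, a replicate block, averaging a gene's probe sets, and leaving out each array, where the remaining lone array is taken to vary like the other genotype.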

Additional observations from a re-analysis of the deposited data

How the results depend on the processing

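The count of 0 called members held in every alternative except the replicate block, which called 1, the Kcnn4 probe set 1435945_a_at (log2 difference -0.20, limma adjusted p = 0.00967). In the other 12 alternatives for that probe set, leaving aside the mean over probe sets, its adjusted p was 0.0546 to 0.363. Over all probe sets the block called 3206 (14.2%) against 836 without it, and 18 pathway genes against 4. The replicate numbers appear in the titles with no statement that they pair samples, and same-numbered arrays deviated together with a correlation of 0.26 across probe sets, from only 2 pairs. The number of called probe sets was 303 without a filter, 556 with a filter at the upper quartile, 323 without the intensity trend, and 500 to 1648 when an array was left out. For pathway genes it was 1 without a filter, 1 without the trend, and 2 to 8 when an array was left out. Averaging all probe sets of each member turned the sign for Ptger4 (-0.031) and Smad3 (0.016), and for Nkx2-3, which is below the filter and has no test (0.024 against -0.093), and brought Kcnn4 to -0.00027. With an array left out the log2 difference ranged from -0.40 to 0.20 for Lrrk2, from -0.10 to 0.50 for Kcnn4 probe set 1421038_a_at, from -0.22 to 0.0097 for Ptpn2 probe set 1417140_a_at and from -0.049 to 0.091 for Ptger4. The cause of these turns was not tested. Of 132 values of tested members under alternatives 124 kept direction and side of the threshold, 1 passed it and 7 turned sign. Lrrk2 and the dimmer Ptpn2 probe sets did not pass the upper quartile filter. Dim signal limits Nkx2-3 and Slc22a4 most.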
